A study of Mus musculus with 4 samples.

Results

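ERBB receptors are cell-surface tyrosine kinases that dimerise when a ligand binds and then signal through the RAS-ERK and PI3K-AKT pathways. EGFR (ERBB1) is opened by transforming growth factor alpha, amphiregulin and other EGF-like ligands, ERBB3 and ERBB4 bind neuregulins, and ERBB2 has no known ligand and acts as the favoured partner of the others. The ligands are made as membrane precursors and are mostly released by proteases, and in the pubertal mouse mammary gland EGFR of the stroma is known to be needed for the ducts to grow. The genes described here are the 4 receptor genes Egfr, Erbb2, Erbb3 and Erbb4 and 6 ligand genes, Tgfa, Hbegf, Btc, Ereg, Epgn and Nrg1. They were selected by name, each from the probe set annotated to that gene alone, and all 10 were found among 19938 genes on the array.

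Terminal end buds are the bulbous tips at which the ducts of the pubertal mammary gland grow, and they were physically separated from the gland of female C57/BL6 mice for 4 Affymetrix arrays. The 2 Ovol2 KO arrays held end buds of Ovol2flox/-;K14-Cre mice, 3 mice pooled per array, with Cre driven by the keratin 14 promoter of basal epithelium and skin and the null allele present in every cell. The 2 control arrays each held 2 Ovol2flox/+ mice, which carried K14-Cre in some cases per the protocol and no Cre per the sample genotype. Both groups thus carried at least 1 floxed allele, no agent was given, and age was 4.5 weeks in the sample labels but 24 to 25 days in the series text. Pool size and the null allele differed between the groups together with the Cre deletion, and by the sample genotype so did K14-Cre itself. These cannot be told apart.

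The arrays had median signals of 263 and 272 in Ovol2 KO end buds and of 264 and 252 in control end buds. Ovol2 itself, a zinc finger repressor, gave signals of 211 and 204 in Ovol2 KO end buds, against 250 and 291 in control end buds, a log2 difference of -0.39 ± 0.16 short of the threshold (limma, adjusted p = 0.17). Whether its probes lie in the deleted part of the gene was not tested, so this value does not measure the deletion. Krt14, whose promoter drove Cre, differed by 0.43 ± 0.15 (adjusted p = 0.0993), and by 0.72 without Ovol2 KO replicate 1 and 0.14 without Ovol2 KO replicate 2. The measured luminal and basal epithelial markers, 12 of each, lay between the 69.3rd percentile of all genes for Lgr5 and the 99.98th for Krt8. In bulk end buds, fewer cells of a type and less RNA per cell cannot be told apart.

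Here a signal is the linear probe set intensity as deposited. A summed signal instead adds the measured genes of a list after quantile normalisation, returned to the linear scale with the offset of 16 removed. A log2 difference is Ovol2 KO minus control on quantile-normalised log2(signal + 16), the value after ± is its SE (n = 2 arrays per group), and the call is limma's adjusted p under 0.05 over 11963 tested genes. Signals of different probe sets are not comparable, so the members are not ranked by level. Percentiles across genes are for the same reason only approximate. A summed signal weighs bright probe sets most and is compared between arrays only.

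Egfr was higher and the ligand genes Nrg1 and Tgfa were lower in Ovol2 KO end buds, and these 3 of the 9 tested members passed the threshold (33.3%). Over all 11963 tested genes 10.7% passed, 6.29% upwards and 4.45% downwards. All 4 receptor genes had a log2 difference above 0, with a median of 0.26. All 5 tested ligand members had one below 0, with a median of -0.36. Over all tested genes 44.3% lay above 0 and 55.7% below, with a median of -0.02. Not every measured ligand gene was lower, as the untested member Ereg was higher by 0.32 and Nrg4, outside the members, by 1.06. The signs of the tested members were the same in the values as deposited and after median centring. That of Erbb2 turned without control replicate 1 (-0.038) and that of Btc without Ovol2 KO replicate 2 (0.060). Without control replicate 1 the receptor median was 0.13, and without control replicate 2 it was 0.39. The arrays of the 2 groups did not overlap for 7 of the 9 tested members (77.8%), against 56.3% of all tested genes. Of these members 3 lay above and 4 below the controls, against 26.4% and 29.9% of all tested genes. At an unadjusted p under 0.05 there were likewise 7 of the 9, against 25.5% of all tested genes. The remaining member, Ereg, lay under the filter on dim genes and was not tested. With 2 arrays per group an exact permutation test of a single gene cannot go below p = 0.333, so the calls rest on the variance that limma borrows across genes. Without control replicate 1 only Nrg1 of the members passed, and without Ovol2 KO replicate 1 there were 5 (Btc, Egfr, Epgn, Nrg1 and Tgfa). Over all genes these fits called 465 and 2354.

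**Figure D1:**
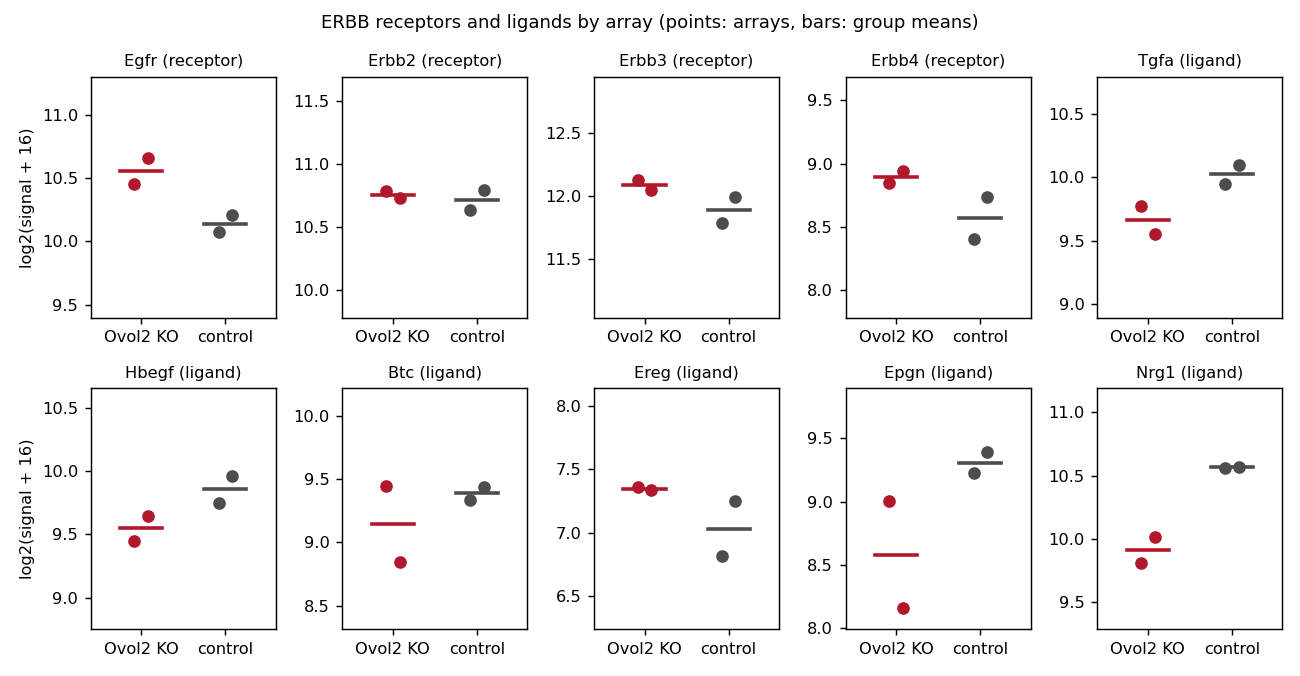
Quantile-normalised log2(signal + 16) of each member on each array, with Ovol2 KO arrays in red at the left and control arrays in grey at the right of each panel, and bars at the group means (n = 2). Every panel spans the same height on the log2 scale. The groups are apart for Nrg1 (-0.66), while for Epgn and Btc 1 of the Ovol2 KO arrays lies far below the other.

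Egfr, the receptor for most EGF-like ligands, gave signals of 1427 and 1580 in Ovol2 KO end buds, against 1028 and 1174 in control end buds. Both knockout arrays lay above both control arrays. The log2 difference was 0.42 ± 0.08 (95% CI 0.23 to 0.60, adjusted p = 0.0128), a 1.34-fold higher level. The call was lost after median centring (adjusted p = 0.0536), without the mean-variance trend (adjusted p = 0.0896) and without control replicate 1 (adjusted p = 0.0744), with adjusted p-values from 4.53e-08 to 0.0896 over the alternatives. Of 14 tested fibroblast markers 14 rose, with a median log2 difference of 1.22, while 6.29% of all tested genes rose and 4.45% fell. Their summed signal ranged from 29540 to 36478 in Ovol2 KO end buds, against 13475 to 14274 in control end buds. None of the 14 was listed at 0, the lowest deposited signal being 143 for Lama2. Endothelial markers had 5 of 10 tested genes that rose and 0 that fell, against 2 that rose without control replicate 1 and 0 without the trend. Their summed signal ranged from 7164 to 8723 in Ovol2 KO end buds, against 5316 to 6160 in control end buds. Basal markers had 6 of 12 tested genes that rose and 2 that fell. Of 5 tested adipocyte markers 4 rose and 0 fell. The part of any of these cell types in the Egfr value was not tested. Of 12 tested luminal markers 2 rose and 0 fell (16.7%, against 10.7% of all tested genes). With a robust prior 1 rose, and 0 passed without the trend. The summed signal of the luminal markers ranged from 75554 to 75600 in Ovol2 KO end buds, against 70415 to 72924 in control end buds.

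Erbb2, the receptor without a known ligand, gave signals of 1790 and 1659 in Ovol2 KO end buds, against 1541 and 1777 in control end buds. The groups overlapped, with a log2 difference of 0.04 ± 0.07 (95% CI -0.11 to 0.20, adjusted p = 0.731). A further probe set, annotated to both Erbb2 and Sympk and therefore outside the selection, read 9.80 and 9.63 on the log2 scale in Ovol2 KO end buds, against 9.27 and 9.46 in control end buds, before normalisation between arrays. Unlike the probe set of Erbb2 alone, it did not overlap between the groups, and the gene behind its signal is not known here.

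Erbb3, a neuregulin receptor with a much weakened kinase, gave signals of 4508 and 4194 in Ovol2 KO end buds, against 3498 and 4064 in control end buds. Both knockout arrays were above both controls, but the log2 difference of 0.20 ± 0.07 did not pass (95% CI 0.05 to 0.35, adjusted p = 0.0923). It was 0.10 without control replicate 1 and 0.30 without control replicate 2. With all 4 arrays it passed in the values as deposited and with a replicate block, and in no other fit. In both of these fits limma took the variance as known from the trend. Erbb4, a neuregulin receptor with a known role in the differentiation of milk-secreting cells, gave 456 and 480 in Ovol2 KO end buds, against 322 and 403 in control end buds. It differed by 0.32 ± 0.13 (95% CI 0.03 to 0.62, adjusted p = 0.157), again without overlap and without passing. Its difference was 0.16 without control replicate 1 and 0.48 without control replicate 2. The control arrays of Erbb4 lay further from each other than the higher of them lay from the knockout arrays. Whether the changes of the 4 receptor genes differ from each other was not tested.

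**Figure D2:**
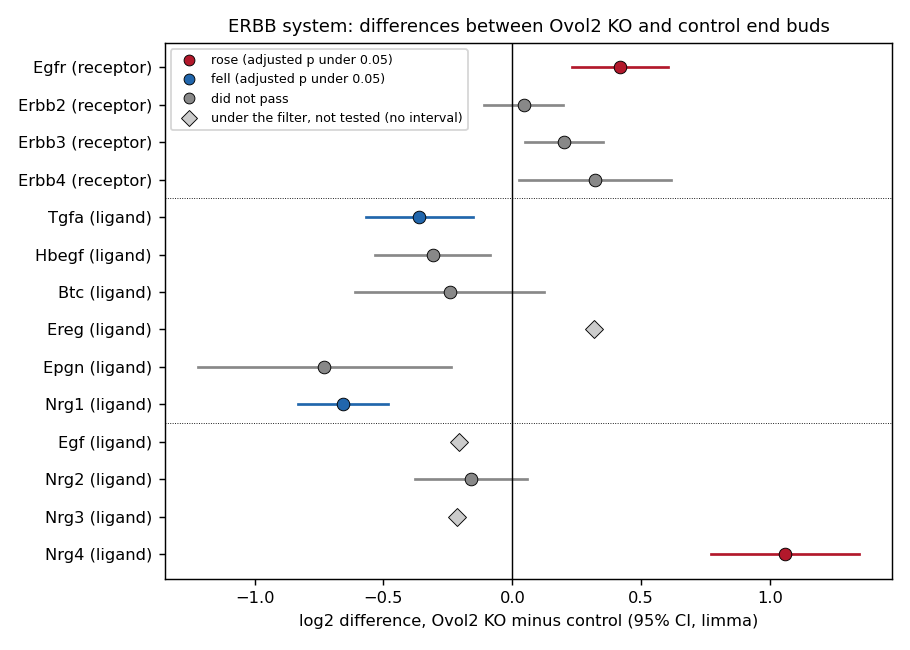
Log2 difference between Ovol2 KO and control end buds for the 4 receptor genes, the 6 ligand members and 4 further ligand genes, with 95% confidence intervals from limma (n = 2 arrays per group). Red points rose, blue points fell, grey points did not pass, and diamonds lay under the filter and have no interval. The receptor genes sit at 0.04 to 0.42, and the tested ligand members at -0.73 to -0.24.

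Nrg1, the neuregulin that binds ERBB3 and ERBB4, gave signals of 908 and 1002 in Ovol2 KO end buds, against 1465 and 1519 in control end buds. The control arrays nearly coincided, and both knockout arrays lay well below them. The log2 difference was -0.66 ± 0.08 (95% CI -0.83 to -0.48, adjusted p = 0.00135), which is 1.58-fold lower. Nrg1 passed in 15 of 15 alternatives, with log2 differences from -0.76 to -0.56 and adjusted p-values up to 0.0446. In the mouse gland Nrg1 is known as a product of basal cells. Of 12 tested basal markers 6 rose and 2 fell, but 1 rose and 2 fell with a robust prior, 6 rose and 0 fell after median centring, 5 rose and 0 fell without control replicate 1, and 0 passed without the trend. Among the 12, Trp63 (-0.36 ± 0.06, adjusted p = 0.00864) and Itgb4 (-0.26 ± 0.07, adjusted p = 0.0346) fell, as Nrg1 did. In fits on all 4 arrays, the Itgb4 call was lost with unscaled signals, after median centring and without a filter. The Itgb4 call was also lost without the trend and with the crossed pairing added later. Among these fits Trp63 lost its call only after median centring and without the trend. The basal markers that rose were Acta2, Myh11, Mylk, Cnn1, Oxtr and Lgr5, while Krt5, Krt14, Krt17 and Itga6 did not pass. The summed signal of the basal markers ranged from 34671 to 41950 in Ovol2 KO end buds, against 30126 to 32155 in control end buds. Schwann and nerve markers had 1 of 5 tested genes that fell and 0 that rose (20% passed, against 10.7% of all tested genes). That gene, Ngfr, did not pass without the trend or without control replicate 1, and Cdh19, which lay under the filter, was higher by 1.08 and passed when no filter was set (adjusted p = 0.00185). The summed signal of their 6 measured markers ranged from 3204 to 3264 in Ovol2 KO end buds, against 3564 to 3689 in control end buds. The part of either cell type in the Nrg1 value was not tested.

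Tgfa, an EGFR ligand found in end buds and a known stimulus of ductal growth, gave signals of 887 and 726 in Ovol2 KO end buds, against 947 and 1089 in control end buds. The groups did not overlap, but the nearest arrays were close. The log2 difference was -0.36 ± 0.09 (95% CI -0.57 to -0.15, adjusted p = 0.0361), or 1.28-fold lower. It did not pass in 6 of 15 alternatives, among them no filter (adjusted p = 0.0536) and the fits without Ovol2 KO replicate 2 (log2 difference -0.25, adjusted p = 0.0676), control replicate 1 (adjusted p = 0.0637) or control replicate 2 (adjusted p = 0.165). Its adjusted p-values over the alternatives lay between 1.42e-05 and 0.165.

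Immune cell markers are given beside the lower ligand genes, and over all tested genes 6.29% rose and 4.45% fell. Of 3 tested lymphocyte markers 2 fell, Cd79b with a log2 difference of -1.91 ± 0.22 (adjusted p = 0.00118) and Ccr7 with -0.84 ± 0.12 (adjusted p = 0.00278), and the summed signal of the 8 measured ranged from 1213 to 1251 in Ovol2 KO end buds, against 2172 to 2676 in control end buds. Of 6 tested macrophage markers 1 fell, and 0 passed without the trend, with a robust prior or without either control array, and the summed signals of the 9 measured overlapped (2540 to 3513 in Ovol2 KO end buds, against 3414 to 3777 in control end buds). The part of immune cells in the ligand values was not tested.

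Hbegf, a heparin-binding ligand of EGFR and ERBB4, gave signals of 711 and 777 in Ovol2 KO end buds, against 822 and 994 in control end buds. It was lower on both knockout arrays, with a log2 difference of -0.31 ± 0.10 that did not pass (95% CI -0.53 to -0.09, adjusted p = 0.0801). With all 4 arrays it passed with a robust prior and with a replicate block, and in no other fit. In the fit with the block limma took the variance as known from the trend. Btc, which encodes betacellulin, a ligand of EGFR and ERBB4, gave 710 and 448 in Ovol2 KO end buds, against 610 and 681 in control end buds. The groups overlapped, as the knockout arrays lay on either side of the controls (log2 difference -0.24 ± 0.16, adjusted p = 0.40).

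Epgn, encoding the epithelial mitogen epigen, an EGFR ligand, gave signals of 515 and 279 in Ovol2 KO end buds, against 565 and 658 in control end buds. Both knockout arrays were below the controls, and replicate 2 was much lower than replicate 1. The log2 difference of -0.73 ± 0.22 was the largest among the tested members and did not pass (95% CI -1.22 to -0.24, adjusted p = 0.0651). It was -0.31 without Ovol2 KO replicate 2 and -1.13 without Ovol2 KO replicate 1. With all 4 arrays it passed in the values as deposited, after median centring, with a replicate block and with the crossed pairing added later. It passed in no other fit on all 4 arrays. In all of these passing fits but the crossed pairing, limma took the variance as known from the trend. Epidermal markers, given because K14-Cre is also active in skin, had 0 of 4 tested genes past the threshold by limma, and 0 at an unadjusted p under 0.05. Ereg, which encodes epiregulin, a ligand of EGFR and ERBB4, gave signals of 143 and 152 in Ovol2 KO end buds, against 102 and 129 in control end buds. At this low signal it was not tested, and its log2 difference was 0.32, higher on both knockout arrays, but 0.099 without control replicate 1 and 0.54 without control replicate 2. Epgn, Ereg and Btc lie in 1 cluster on mouse chromosome 5, with 0 protein-coding genes between Epgn and Ereg and 1 between Ereg and Btc in the RefSeq gene table.

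**Figure D3:**
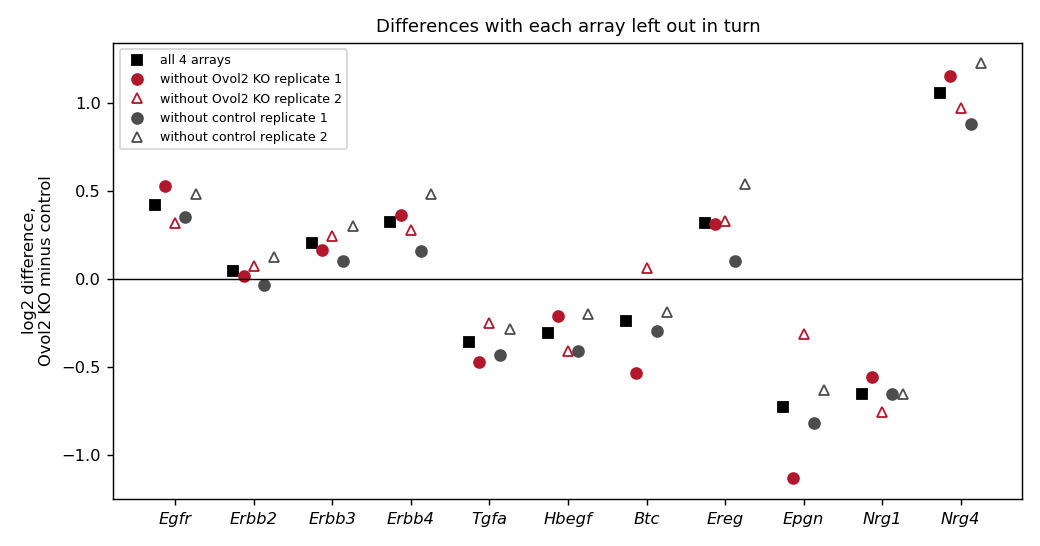
Log2 difference of the 10 members and Nrg4 with all 4 arrays (black squares) and with each array left out in turn (red for an Ovol2 KO array, grey for a control array). Nrg1 stays between -0.76 and -0.56, while Epgn moves to -1.13 or -0.31 and Btc to -0.54 or 0.060 when 1 Ovol2 KO array is left out.

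The stretches of 250 bases before the start sites of Tgfa, Epgn and Egfr are shown because Tgfa and Egfr passed the test and Epgn had the largest difference. They come from RefSeq (GRCm38.p6), whose promoter table held 6 of the 10 members (Egfr, Erbb2, Erbb4, Tgfa, Btc and Epgn). Each is read 5′ to 3′ on the gene's strand, and capitals mark CAGGTG, the reverse complement of CACCTG, the E-box bound by ZEB and Snail repressors.
Tgfa, chr6:86194972-86195221, plus strand: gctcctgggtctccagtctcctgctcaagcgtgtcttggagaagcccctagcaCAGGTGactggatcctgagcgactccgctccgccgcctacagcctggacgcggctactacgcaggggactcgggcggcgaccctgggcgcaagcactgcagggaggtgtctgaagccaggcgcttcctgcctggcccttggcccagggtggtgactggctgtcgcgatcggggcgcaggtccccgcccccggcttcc
Epgn, chr5:91027267-91027516, plus strand: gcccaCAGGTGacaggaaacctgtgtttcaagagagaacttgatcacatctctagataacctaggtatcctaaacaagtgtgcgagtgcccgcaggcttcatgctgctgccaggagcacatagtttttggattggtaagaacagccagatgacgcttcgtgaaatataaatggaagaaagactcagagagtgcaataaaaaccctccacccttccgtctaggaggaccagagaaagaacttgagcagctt
Egfr, chr11:16751953-16752202, plus strand: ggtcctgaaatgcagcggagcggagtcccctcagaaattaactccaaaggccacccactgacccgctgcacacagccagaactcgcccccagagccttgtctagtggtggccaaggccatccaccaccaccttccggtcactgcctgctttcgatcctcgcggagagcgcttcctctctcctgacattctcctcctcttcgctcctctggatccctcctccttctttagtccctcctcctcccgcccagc

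The E-box starts 197 bases before the start site in Tgfa and 245 bases before it in Epgn. CACCTG, sought on both strands, was present in 3 of the 6 member promoters, those of the ligand genes Tgfa, Epgn and Btc, and not in those of Egfr, Erbb2 and Erbb4. Among further ligand genes, of which Nrg2 was not looked at, it was present in the window of Areg. In the 2 windows of Egf and in those of Nrg3 and Nrg4 it was absent. It was present in 17.2% of all 32851 promoter windows of this length. CCGTTA, the core recognised by OVOL proteins, was in 0 of the 6 member windows and in 2.18% of all windows. The 2 motifs do not overlap in sequence, and a match or its absence describes these letters only.

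Among ERBB ligands outside the members, Nrg4 rose and had the largest change of any receptor or ligand gene measured here. Nrg4, a ligand of ERBB4 that brown fat is known to secrete, gave signals of 808 and 877 in Ovol2 KO end buds, against 340 and 440 in control end buds. The 2 groups were widely apart. The log2 difference was 1.06 ± 0.13 (95% CI 0.77 to 1.35, adjusted p = 0.00142), a 2.08-fold higher level, and it passed in 15 of 15 alternatives. Adipocyte markers had 4 of 5 tested genes that rose and 0 that fell, with a summed signal over 10 measured genes of 5418 to 6334 in Ovol2 KO end buds, against 4032 to 4204 in control end buds. Those that rose were Cd36, Fabp4, Lpl and Pparg, of which only Lpl passed without the trend. The fat cell genes Adipoq, Lep, Cidec, Plin4 and Retn lay under the filter, with log2 differences of 0.11, 0.02, -0.02, -0.06 and 0.13, and Plin1 was tested and differed by -0.08. The part of fat cells in the Nrg4 value was not tested. Nrg2 differed by -0.16 ± 0.10 and did not pass (adjusted p = 0.345), and the dim genes Egf and Nrg3 were not tested, with differences of -0.21 each. Of the neuregulin genes, Nrg1 fell and Nrg4 rose.

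The other genes of the pathway were looked at in 5 lists, which include those further ligands. Of 74 tested genes, 6 rose, 3 fell and 65 did not pass, so that 12.2% passed, against 10.7% of all tested genes, a share near that of the background. Their median log2 difference was 0.02. Of 10 tested genes that release or carry the ligand precursors, 1 rose and 0 fell (10% passed, against 10.7% of all tested genes). That gene, Timp3, an inhibitor of the shedding protease ADAM17, differed by 0.51 ± 0.10 (adjusted p = 0.0111), whereas Adam17 itself, the main protease for TGF alpha, differed by -0.09 ± 0.06. Adam12, a protease of the same list, lay under the filter and was higher by 0.69, and it passed when no filter was set (adjusted p = 0.0155). Timp3 did not pass without the trend or with a robust prior, in a range of adjusted p up to 0.0984.

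Of 17 tested inhibitors and turnover genes of the receptors, 1 rose, 1 fell and 15 did not pass. The share that passed was 11.8%, against 10.7% of all tested genes. Lrig1, which promotes the degradation of ERBB receptors, rose by 0.30 ± 0.08 (adjusted p = 0.0451), a call lost in 5 of 15 alternatives, including the fit without control replicate 1 (adjusted p up to 0.377). Sh3kbp1, an adaptor of CBL in receptor endocytosis, fell by 0.51 ± 0.09 (adjusted p = 0.00723), and did not pass without control replicate 1 or without the trend (adjusted p up to 0.0627). Errfi1, the feedback inhibitor of EGFR, named after its value was seen, differed by 0.11 ± 0.05 and did not pass.

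Of 27 tested adaptors and transducers, 2 rose and 0 fell (7.41% passed, against 10.7% of all tested genes). Stat5a, a transcription factor of mammary differentiation, rose by 0.56 ± 0.10 (adjusted p = 0.00933), and Eps8, an EGFR substrate that acts on actin, by 0.29 ± 0.06 (adjusted p = 0.0172). Stat5a did not pass without the trend or with a robust prior (adjusted p up to 0.0915), and Eps8 not without the trend, after median centring or without control replicate 1 (adjusted p up to 0.247). Of 18 tested ERK feedback and early target genes, 1 rose, 2 fell and 15 did not pass. The share that passed was 16.7%, against 10.7% of all tested genes. Etv4, an ETS factor induced by ERK signalling, fell by 0.86 ± 0.17 (adjusted p = 0.0113), with signals that in normalised log2 units were 8.95 and 8.36 in Ovol2 KO end buds, against 9.60 and 9.43 in control end buds. Ccnd1, the cyclin D1 gene, fell by 0.36 ± 0.06 (adjusted p = 0.00624) and Fos, an immediate early gene, rose by 0.29 ± 0.07 (adjusted p = 0.0360). Etv4 lost its call without control replicate 1, without the trend and with a robust prior (adjusted p up to 0.0834), Ccnd1 only without the trend among its alternatives (adjusted p = 0.087), and Fos without control replicate 1 (log2 difference 0.20) or Ovol2 KO replicate 2 (log2 difference 0.19), among 5 of its 15 alternatives (adjusted p up to 0.18). The 6 feedback genes of the Dusp and Sprouty families on this list, named after their values were seen, did not pass. Dusp4 (0.20 ± 0.06, adjusted p = 0.0569), Dusp5 (0.29 ± 0.11, adjusted p = 0.126) and Spry1 (0.19 ± 0.08, adjusted p = 0.179) lay above the controls on both knockout arrays. Dusp6, Spry2 and Spry4 overlapped between the groups, with differences of 0.03 ± 0.08, 0.08 ± 0.09 and -0.04 ± 0.09.

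**Figure D4:**
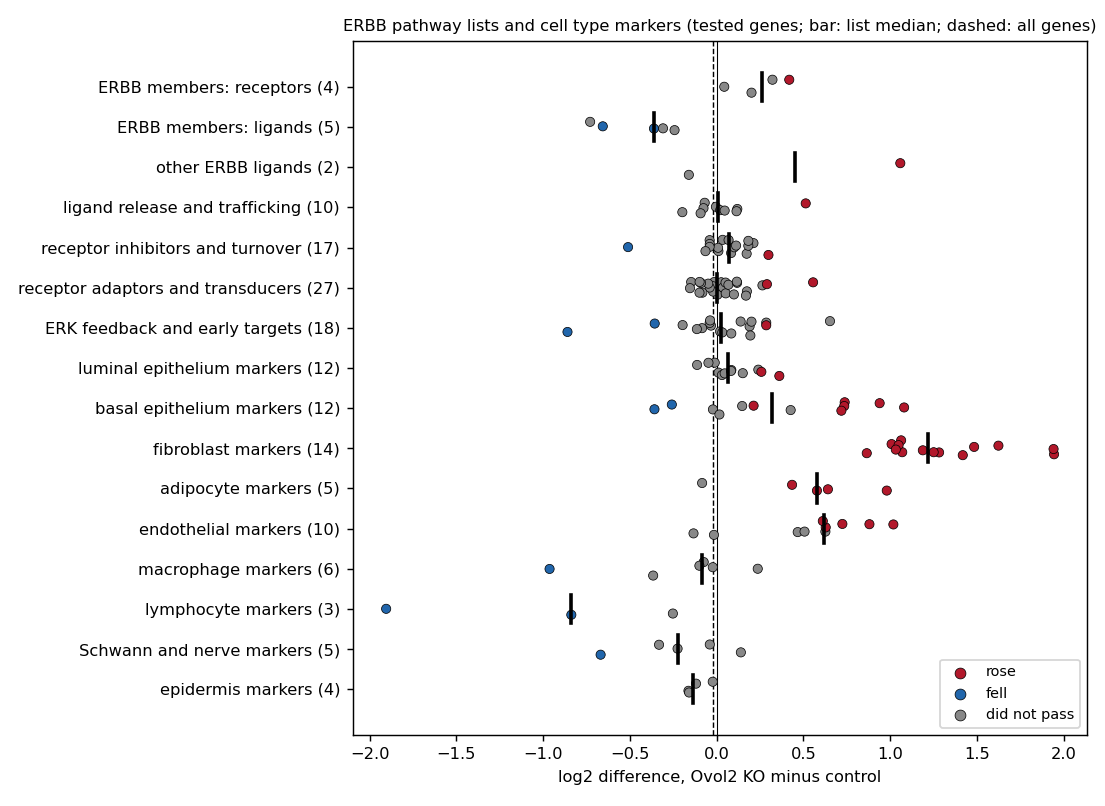
Log2 differences of the tested genes of the members, the 5 pathway lists and the cell type marker lists, with the number tested in brackets. Points are genes (red rose, blue fell, grey did not pass), black bars are list medians and the dashed line is the median of all tested genes (-0.02). Receptor genes lie above 0 and tested ligand members below it, the other ERBB pathway lists centre near 0 apart from the 2 further ligands, and fibroblast markers centre at 1.22.

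Egfr had its closest matches over the 4 arrays in Fgf1, Osgin1 and Aldh2, at Euclidean distances of 0.022, 0.026 and 0.030 between log2 values centred on each gene's own mean. These genes differed by 0.44, 0.44 and 0.41 on the log2 scale. The matches of Epgn were Lhfpl1, Hs3st3a1 and Adap1, at distances of 0.099, 0.11 and 0.18, all of which were also lower on Ovol2 KO replicate 2 than on replicate 1. The matches of both genes were picked for the smallest distance, so their shared direction and array pattern follow from the choice. They are a description over 4 arrays among 11962 other genes.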

How the data were processed

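Signal intensities of 35556 probe sets on 4 arrays were used as deposited, on a linear scale read from the values (all above 0). Per the submitters' processing notes, the authors used Affymetrix Expression Console 1.1.1 and PLIER 2.0; the settings, the background correction, how arrays were normalized and the genome build are not stated there. There were no detection calls, so a dim gene could not be told from background, and the number of arrays limits the precision.

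Of the probe sets, 21789 carried 1 gene symbol, and keeping the brightest probe set of each left 19938 genes. An offset of 16 was added before log2, which understates the change of dim genes, and the values were quantile normalized over all probe sets. Genes with a mean under the 40th percentile (log2 value 7.97) were left out. Ovol2 KO and control arrays were compared with limma 3.58.1 (R 4.3.3; lmFit, eBayes with trend, two-sided), with Benjamini-Hochberg adjustment over 11963 genes and no replicate block. The fit had 2 residual degrees of freedom and borrowed 7.58. The code was tested on simulated data. In 14 alternatives, and 1 added later, 1 choice was changed at a time. Named genes were the members, 4 further ligands (Areg is not analysed here), up to 4 called genes with the largest difference in each pathway list, Ovol2, Krt14, and the 3 closest matches of the receptor and the ligand with the largest difference. Members, lists, motifs and the printed promoters were chosen with earlier results of these data known. Adam12, Adam17 and the marker genes given by name fall outside the rule and were named after their values were seen.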

Additional observations from a re-analysis of the deposited data

How the results depend on the processing

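With all genes, 1285 passed; the count became 753 after median centring, 188 without the trend and 2246 with the replicate block, and ranged from 465 to 2354 with 1 array left out. Of the ERBB members 3 passed, against 5 in the values as deposited, 1 without the trend, 6 with the replicate block, and 1 to 5 with 1 array left out. Of the pathway genes 9 passed, against 14 in the values as deposited, 1 without the trend, 19 with the replicate block, and 4 to 15 with 1 array left out. The cause of these moves was not tested, but in the values as deposited, after median centring, with the block and without either Ovol2 KO array limma took the variance as known from the trend. With 1 array left out, the sign turned for Erbb2 (-0.038 to 0.125, negative without control replicate 1) and for Btc (-0.54 to 0.060, positive without Ovol2 KO replicate 2). The replicate numbers give only a number: deviations of same-numbered arrays correlated at r = -0.196 across genes, and the crossed pairing, added after this was seen, called 1203 genes, 4 members and 8 pathway genes. Erbb4, Epgn, Etv4 and Ovol2 lay under the stricter filter and have no value there.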
